A study of Mus musculus with 4 samples.

Results

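The proteasome genes described here were the 50 of the 32285 listed mouse genes whose symbols begin with Psma, Psmb, Psmc, Psmd, Psme, Psmf or Psmg and a digit. The proteasome degrades proteins tagged with ubiquitin: a barrel of alpha and beta rings, the 20S core, cuts the protein, and the 19S cap recognises, unfolds and feeds it. The beta subunits Psmb6 (beta1), Psmb7 (beta2) and Psmb5 (beta5) cut in most cells, and interferon signalling and leukocytes bring in Psmb9 (beta1i), Psmb10 (beta2i) and Psmb8 (beta5i), which form the immunoproteasome and favour peptides that class I molecules present. Islet endocrine cells secrete large amounts of hormone, and the proteasome clears misfolded products of that synthesis. By role the members were 7 genes of the alpha ring, 4 non-catalytic and 3 catalytic genes of the beta ring, 3 immunoproteasome genes, 6 ATPase and 11 non-ATPase genes of the 19S cap, both subunits of the PA28 activator, 2 other activators, 1 inhibitor, 4 chaperones of 20S assembly, 3 chaperones of 19S assembly and 2 tissue-restricted paralogs. The remaining 2 matched by name only. Psmc3ip encodes a meiotic recombination factor, and Psme2b is a near copy of the PA28 gene Psme2, with which it could share reads.

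Single-cell RNA was counted in pancreatic islets of C57BL/6J females. The groups were CCR2-DTR+/- at 6 months, WT littermates at 6 months, CCR2-DTR+/- at 1 month and WT littermates at 1 month. Every animal, WT included, had been given diphtheria toxin 4 times, 48 hours apart, from postnatal day 2, and was weaned at day 21 to regular chow. In CCR2-DTR mice the receptor for the toxin is driven by Ccr2, so the toxin acted in newborns and RNA was read later. Each group was 1 library of 300 islets pooled from 2 to 3 females, so no group had a replicate and no test between genotypes or ages was made, and animals within a library could not be told apart.

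The promoter sequences of a few members are given: Psmb8, Psmb9 and Psme1, which were called between cell classes below, and Psmb5, the constitutive counterpart of Psmb8. Each runs 5′ to 3′ on the gene's strand, from 250 bases before to 50 bases after the start that RefSeq's GRCm38.p6 table gives. The other annotation used here, also on GRCm38, places the outermost ends of Psmb8 at chr17:34197721-34201454, of Psmb9 at chr17:34181987-34187764 and of Psme1 at chr14:55578123-55581529, so that these windows lie inside its gene spans, while the Psmb5 window crosses the start of its span. Capitals mark matches to the letters of 3 motifs, searched on both strands: TTCNNNGAA (gamma-activated sequence), a pair of GAAA blocks 2 bases apart (the interferon-stimulated response element) and TGACNNNGC (antioxidant response element core).
Psmb8, chr17:34197945-34198244, plus strand: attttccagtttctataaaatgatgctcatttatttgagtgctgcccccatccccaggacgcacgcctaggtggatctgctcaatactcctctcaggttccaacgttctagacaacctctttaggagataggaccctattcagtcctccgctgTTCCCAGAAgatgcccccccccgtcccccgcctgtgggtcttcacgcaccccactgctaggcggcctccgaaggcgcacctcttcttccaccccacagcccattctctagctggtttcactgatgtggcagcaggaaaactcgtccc
Psmb9, chr17:34187281-34187580, minus strand: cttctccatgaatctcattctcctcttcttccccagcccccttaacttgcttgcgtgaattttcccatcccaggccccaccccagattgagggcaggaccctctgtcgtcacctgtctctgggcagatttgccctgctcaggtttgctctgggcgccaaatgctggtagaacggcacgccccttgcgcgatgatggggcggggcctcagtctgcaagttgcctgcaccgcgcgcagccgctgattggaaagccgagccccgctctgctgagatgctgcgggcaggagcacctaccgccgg
Psme1, chr14:55578244-55578543, plus strand: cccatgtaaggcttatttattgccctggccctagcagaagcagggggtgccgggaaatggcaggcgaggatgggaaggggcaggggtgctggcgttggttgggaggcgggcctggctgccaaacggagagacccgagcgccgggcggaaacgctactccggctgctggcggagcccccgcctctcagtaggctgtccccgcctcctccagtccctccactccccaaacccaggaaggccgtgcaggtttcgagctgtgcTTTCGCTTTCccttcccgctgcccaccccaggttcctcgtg
Psmb5, chr14:54617946-54618245, minus strand: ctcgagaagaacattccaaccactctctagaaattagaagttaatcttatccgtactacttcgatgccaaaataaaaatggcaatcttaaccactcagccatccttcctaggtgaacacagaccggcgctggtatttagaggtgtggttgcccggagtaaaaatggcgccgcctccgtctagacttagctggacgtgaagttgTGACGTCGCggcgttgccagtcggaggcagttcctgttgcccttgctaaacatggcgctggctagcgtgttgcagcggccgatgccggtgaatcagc
The table held 45 promoter sequences for 42 of the members. The gamma-activated letters stood in the windows of Psmb8, Psmd2 and Psmg1, and in 8.30% of all 32851 sequences. The response element letters stood at Psme1, Psmb3, Psmd4, Psmd9 and Psmg4, and in 3.44% of all sequences. The antioxidant letters stood at Psmb5, Psmb6, Psmc6, Psmd9, Psmd12 and Psme4, and in 12.4% of all sequences. Psmb9 and Psmb10 had none of the 3 in this window.

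After filtering, the libraries held 4252 cells (CCR2-DTR, 6 months), 3633 cells (WT, 6 months), 8599 cells (CCR2-DTR, 1 month) and 8736 cells (WT, 1 month), with medians of 8859 to 14704 UMIs, the counted RNA molecules, per cell. Barcodes over the mitochondrial limit made up 23.9% and 18.4% in the CCR2-DTR libraries, against 12.2% and 9.37% in the WT libraries. Any pair of libraries shared 6 to 34 barcodes, at most 0.422% of the smaller one. Ccr2 had 391 UMIs in macrophage-like cells of CCR2-DTR mice and 156 in those of WT mice at 6 months, and 307 against 97 at 1 month. In beta-like cells Ccr2 had 73 UMIs in CCR2-DTR against 0 in WT mice at 6 months, and 78 against 1 at 1 month; the source of these reads was not tested. Clusters were named from marker genes and are called beta-like, macrophage-like and so on. The 8 classes compared were beta, alpha, delta, gamma, endothelial, mesenchymal, macrophage and lymphocyte (T and B together). A cluster of 933 cells named alpha-like was led by Pyy and Ppy, genes of gamma cells. Unnamed clusters entered no class. The largest, low in UMIs and scoring highest for beta markers, held 575 and 942 cells at 6 months, against 259 and 19 at 1 month (CCR2-DTR, WT). Beta-like cells numbered 1317 and 729 at 6 months. The proteasome genes were kept out of the genes used to cluster.

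Endocrine cells carried mainly the constitutive catalytic genes, while in macrophage-like, endothelial-like and lymphocyte-like cells the immunoproteasome genes had about as many UMIs or more. The measure was the immunoproteasome share, the UMIs of Psmb8, Psmb9 and Psmb10 as a percentage of those plus the UMIs of Psmb5, Psmb6 and Psmb7, with both counts from the same cells. In macrophage-like cells it was 70.5% (CCR2-DTR, 6 months), 66.2% (WT, 6 months), 51.1% (CCR2-DTR, 1 month) and 55.0% (WT, 1 month). In endothelial-like cells it was 60.2%, 60.3%, 49.1% and 52.9% in the same order of libraries, and in lymphocyte-like cells 67.0%, 58.5%, 62.5% and 66.7%. In the 4 endocrine classes together it was 13.4%, 14.0%, 8.76% and 9.62%. The lowest library of each of the 3 non-endocrine classes stood above the highest endocrine library. The means were 60.7% ± 9.12 in macrophage-like, 55.6% ± 5.54 in endothelial-like, 63.7% ± 4.01 in lymphocyte-like and 11.5% ± 2.66 in endocrine cells (SD, n = 4 libraries, which differ in genotype and age). Macrophage-like, endothelial-like and lymphocyte-like ranges overlapped one another. Only 11, 13 and 28 lymphocyte-like cells came from 3 of the libraries, against 118 from CCR2-DTR mice at 6 months.

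**Figure D1:**
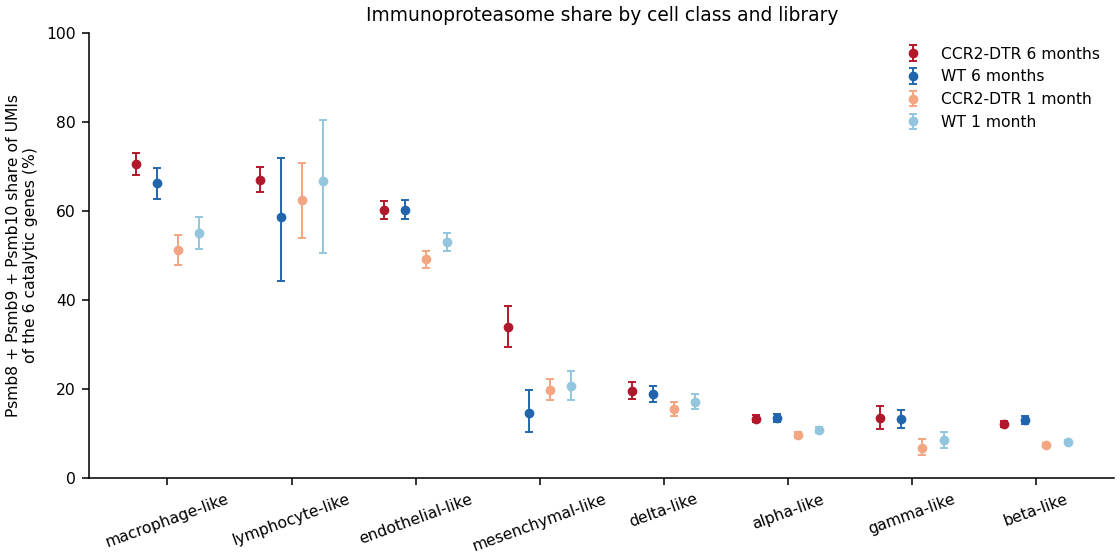
Immunoproteasome share (percent of the UMIs of the 6 catalytic genes) in each cell class, 1 point a library with its exact Clopper-Pearson 95% interval, which covers counting error only. Macrophage-like, lymphocyte-like and endothelial-like points lie between 49.1% and 70.5%, and beta-like points between 7.33% and 13.0%.

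Among endocrine classes delta-like cells had the highest share, 19.6%, 18.8%, 15.4% and 17.1% in the library order above, a mean of 17.8% ± 1.87. Beta-like cells had 12.1%, 13.0%, 7.33% and 8.15%. Alpha-like cells had 13.4%, 13.5%, 9.63% and 10.7%, and gamma-like cells 13.5%, 13.2%, 6.83% and 8.45%. Within every library the delta-like share was above that of the other 3 endocrine classes, while those 3 overlapped across libraries. Each of the paired subunits showed the difference between endocrine and other cells. The share of Psmb8 against its counterpart Psmb5 averaged 68.8% ± 11.4 in macrophage-like cells, 57.8% ± 6.42 in endothelial-like cells and 11.6% ± 3.58 in endocrine cells. The share of Psmb9 against its counterpart Psmb6 averaged 43.6% ± 11.7 in macrophage-like cells, 44.8% ± 8.91 in endothelial-like cells and 6.99% ± 1.48 in endocrine cells. Psmb10 against Psmb7 averaged 66.2% ± 3.79, 65.3% ± 1.16 and 20.7% ± 3.06 in these classes (SD, n = 4 libraries).

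The markers of the immune and endothelial classes were read in endocrine cells. Of 10 macrophage markers, 3 to 10 were detected in an endocrine class and library, at a summed 32.6 to 127 CPM, against 15914 to 22550 CPM in macrophage-like cells. In beta-like cells the 3 immunoproteasome genes gave 48.4 to 97.6 UMIs for each 100 UMIs of the macrophage markers, against 2.59 to 3.52 in macrophage-like cells. For each 100 UMIs of 9 endothelial markers they gave 134 to 289 in beta-like cells, against 2.32 to 2.66 in endothelial-like cells. In delta-like cells the macrophage markers summed to 74.0 to 127 CPM, above the 32.6 to 51.8 CPM of beta-like cells, and the endothelial markers to 32.9 to 50.4 CPM, above 10.3 to 18.7 CPM. Their part in the higher delta-like share was not tested.

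Levels of single genes were compared between classes with edgeR's quasi-likelihood test on UMIs summed per library and class, with the library as a block, and a gene was called at a Benjamini-Hochberg adjusted p under 0.05 and at least 2-fold. Levels are CPM after TMM scaling, with endocrine values averaged over the 4 classes. All members but Psma8 (60 UMIs, a testis paralog of Psma7) and Psmb11 (4 UMIs, the thymus paralog of Psmb5) passed the low-count filter. In macrophage-like against endocrine cells 6 of 48 members were called higher and 0 lower, where 20.4% of all 13953 genes tested were called higher and 19.3% lower. In endothelial-like cells 6 were higher and 0 lower, against 21.5% and 21.2% of all genes, and in lymphocyte-like cells 5 were higher and 0 lower, against 15.2% and 19.2%. These counts lie below the shares of all genes. The 3 immunoproteasome genes, Psme1 and Psme2b, which matched by name only, were called in all 3 comparisons. Psme2 was called in macrophage-like cells alone and Psmc3 in endothelial-like cells alone.

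Psmb8, the inducible chymotrypsin-like subunit, had 434 and 433 CPM at 6 months (CCR2-DTR, WT) and 223 and 245 CPM at 1 month in macrophage-like cells, against 22.6, 22.9, 16.7 and 16.7 CPM in endocrine cells. Its log2 fold change was 4.08 ± 0.10 (SE, adjusted p = 2.7e-26, 4 libraries). In endothelial-like cells Psmb8 had 237, 225, 146 and 176 CPM, with a log2 fold change of 3.34 ± 0.09 (adjusted p = 4.2e-25). In lymphocyte-like cells it reached 515, 267, 355 and 255 CPM, with a log2 fold change of 4.29 ± 0.14 (adjusted p = 9.0e-22). Every library of these classes was above every endocrine value. Psmb9, the inducible counterpart of beta1, had 239, 128, 94.1 and 86.4 CPM in macrophage-like cells, against 12.1, 13.1, 9.62 and 11.01 CPM in endocrine cells, a log2 fold change of 3.57 ± 0.17 (adjusted p = 2.1e-18). It was higher by 3.35 ± 0.14 in endothelial-like and by 3.97 ± 0.24 in lymphocyte-like cells (adjusted p = 2.9e-20 and 5.6e-15). Psmb10, the counterpart of beta2, had 162, 125, 108 and 125 CPM in macrophage-like cells, against 18.9, 18.6, 16.2 and 15.8 CPM in endocrine cells. Its log2 fold changes were 2.92 ± 0.11, 3.00 ± 0.09 and 2.61 ± 0.19 in macrophage-like, endothelial-like and lymphocyte-like cells (adjusted p = 2.4e-21, 1.0e-24 and 2.7e-13). Exons of Psmb9 overlap Tap1 and those of Psmb8 overlap Gm20496, both on the opposite strand, and the sources used here do not state whether counting used the strand.

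PA28 is a ring of Psme1 and Psme2 proteins that opens the 20S core and is, like the immunoproteasome, interferon-inducible. Psme1 had 421, 343, 237 and 256 CPM in macrophage-like cells, against 64.5, 66.6, 78.5 and 79.2 CPM in endocrine cells, a log2 fold change of 2.16 ± 0.11 (adjusted p = 2.5e-17). It was higher by 1.72 ± 0.10 in endothelial-like and by 1.67 ± 0.18 in lymphocyte-like cells (adjusted p = 7.2e-16 and 3.1e-09). Psme2 had 246, 186, 179 and 164 CPM in macrophage-like cells, against 84.2, 88.4, 107 and 98.4 CPM in endocrine cells, and was called only there, with a log2 fold change of 1.05 ± 0.13 (adjusted p = 2.8e-08). That call was lost without the CCR2-DTR 6-month library, with doublets kept, with the counts split and with cells thinned to 2000 UMIs. In lymphocyte-like cells Psme2 stood at 0.93 ± 0.20, and at -0.25 without the same library. Psme2b had the highest fold changes of all members, 5.19 ± 0.35, 5.20 ± 0.26 and 4.91 ± 0.61 in macrophage-like, endothelial-like and lymphocyte-like cells (adjusted p = 1.8e-14, 3.3e-18 and 5.8e-08). It had 578 UMIs in all, is nearly identical to Psme2 and lies in exons of 9930111J21Rik1 on the same strand, so its reads could belong to either. In lymphocyte-like cells it was at 0 in both WT libraries.

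**Figure D2:**
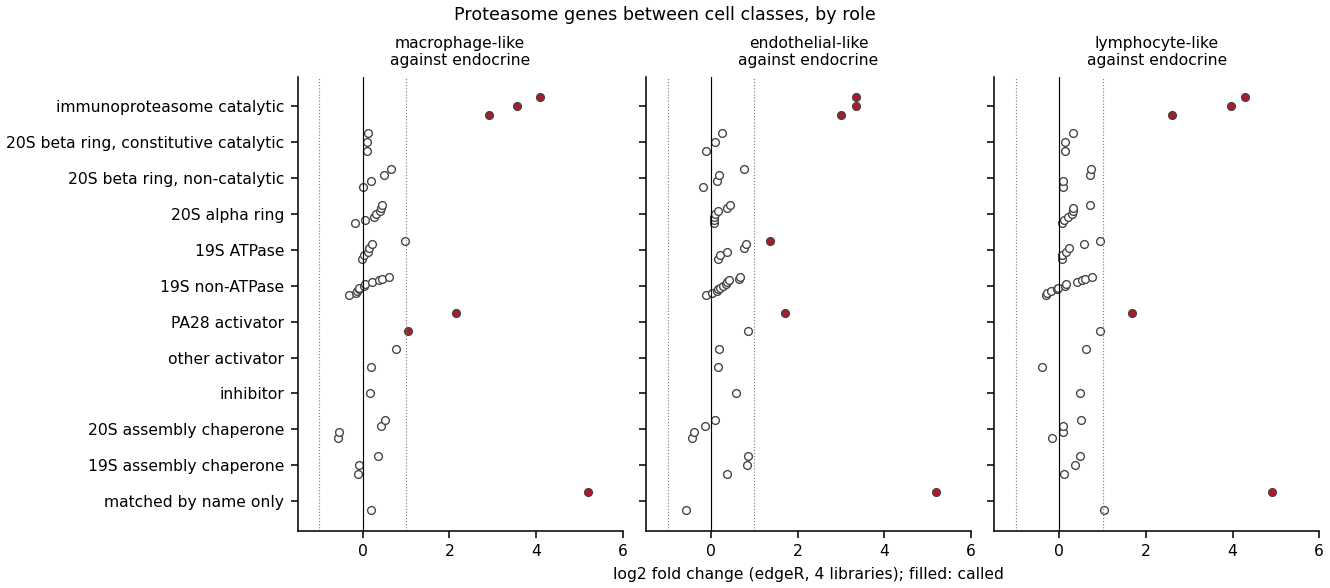
Log2 fold change of each proteasome gene that passed the low-count filter, 48 genes grouped by role, in macrophage-like, endothelial-like and lymphocyte-like against endocrine cells (edgeR, 4 libraries). Filled points were called, dotted lines mark 2-fold, and the filled points belong to the immunoproteasome, PA28 and Psme2b, plus 1 ATPase in endothelial-like cells.

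Most of the other members did not pass the rule. None of the 7 alpha ring genes, 7 constitutive beta ring genes or 11 non-ATPase cap genes was called in these 3 comparisons. The median log2 fold change of the alpha ring was 0.31 in macrophage-like, 0.09 in endothelial-like and 0.29 in lymphocyte-like cells, beside medians over all genes tested of -0.07, -0.00 and -0.29. In endothelial-like cells the 19S side stood higher, with medians of 0.56 for the 6 ATPases (0.16 to 1.36), 0.28 for the 11 non-ATPase genes (-0.12 to 0.68) and 0.83 for the 3 chaperones of 19S assembly (0.36 to 0.86), and of these Psmc3 alone was called. In macrophage-like cells the same medians were 0.13, 0.04 and -0.09. Psmb5, the constitutive chymotrypsin-like subunit, had 123, 117, 178 and 145 CPM in macrophage-like cells, against 119, 121, 159 and 136 CPM in endocrine cells, and the libraries overlapped. Its log2 fold change was 0.09 ± 0.10 (adjusted p = 0.46). Psmb6 stood at 0.09 ± 0.09 and Psmb7 at 0.13 ± 0.11 (adjusted p = 0.40 and 0.29). Over the 8 classes the SD of the log2 level was 0.13 for Psma2, 0.15 for Psma6 and 0.15 for Psmb6, the lowest of the 48, against 1.94 for Psmb8, 1.73 for Psmb9, 1.38 for Psmb10 and 0.97 for Psme1. Psmc3, an ATPase of the cap (Rpt5), had 104, 103, 104 and 100 CPM in endothelial-like cells, against 39.1, 34.6, 44.8 and 42.4 CPM in endocrine cells, a log2 fold change of 1.36 ± 0.09 (adjusted p = 3.5e-15). In macrophage-like cells its log2 fold change of 0.99 ± 0.12 was just under 2-fold (adjusted p = 8.2e-09). Its exons overlap Slc39a13 on the opposite strand.

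Macrophage-like and endothelial-like cells were also set against each other. No member was called in either direction by edgeR's quasi-likelihood test, where 33.2% of all genes tested were called. Psmb8 was nonetheless higher in macrophage-like cells by 0.74 ± 0.13, under 2-fold (adjusted p = 9.6e-06), and Psmd7 (Rpn8), a scaffold of the cap's deubiquitinase, was lower by -0.76 ± 0.11 (adjusted p = 5.3e-07). Psmd7 had 116, 105, 120 and 109 CPM in macrophage-like cells, against 211, 173, 182 and 195 CPM in endothelial-like cells, with no overlap. It was named after its values were seen.

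**Figure D3:**
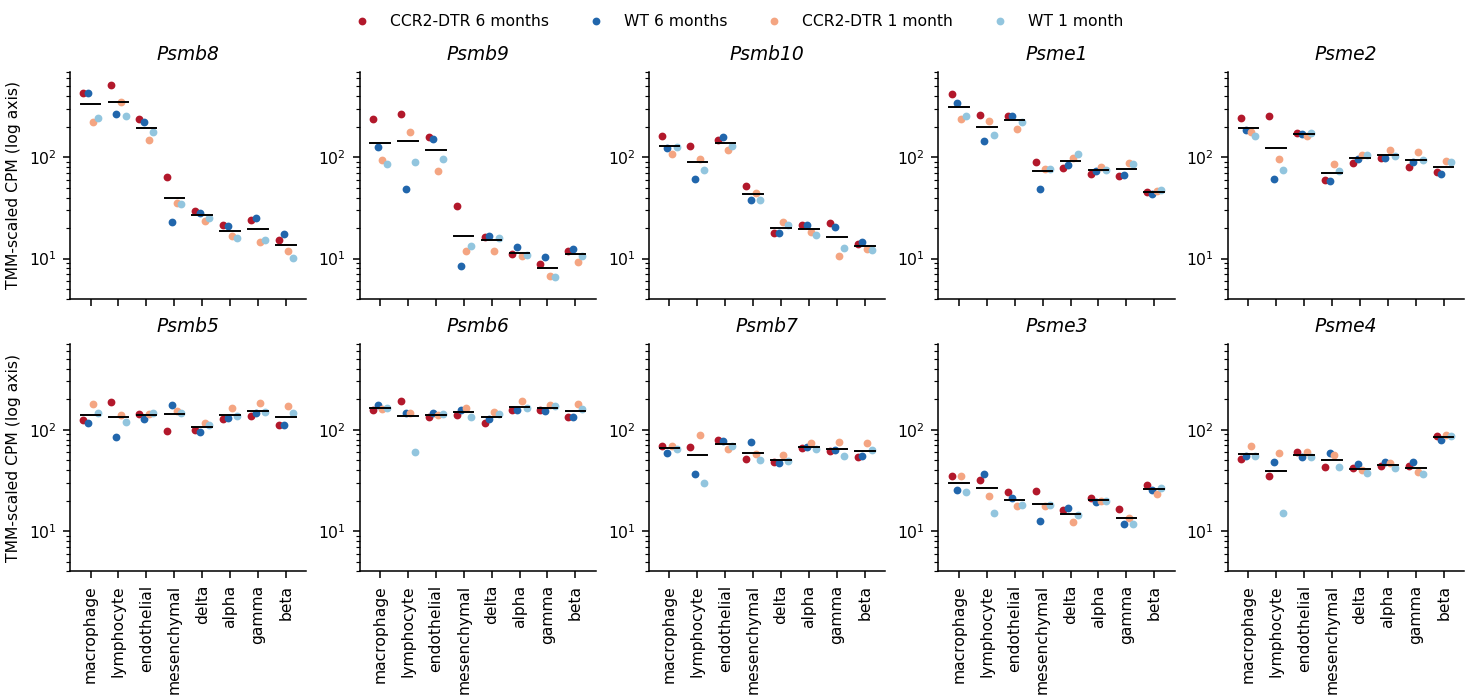
TMM-scaled CPM (log axis) of the immunoproteasome, PA28, constitutive catalytic and alternative activator genes in each class, 1 point a library and a bar for the mean of the 4 libraries. The immunoproteasome genes and Psme1 step down between endothelial-like and endocrine classes, while Psmb5, Psmb6 and Psmb7 overlap between most classes and Psme4 is highest in beta-like cells.

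Beta-like cells differed from the other endocrine classes in the activators that dock on the 20S core. Psme4, the PA200 activator known for ubiquitin-independent degradation of histones, had 43.5, 48.4, 47.1 and 41.9 CPM in alpha-like, 42.0, 45.7, 39.6 and 37.4 CPM in delta-like and 44.1, 47.9, 37.9 and 36.9 CPM in gamma-like cells. It had 86.5, 79.7, 88.1 and 85.9 CPM in beta-like cells, so no library of these classes reached a beta-like one. Its log2 fold change against beta-like cells was -0.92 ± 0.08 in alpha-like, -1.05 ± 0.09 in delta-like and -1.03 ± 0.10 in gamma-like cells (adjusted p = 3.1e-11, 7.7e-12 and 2.4e-10). Psme3, the nuclear activator PA28gamma, was lower than in beta-like cells by -0.36 ± 0.09, -0.80 ± 0.10 and -0.97 ± 0.13 in these classes (adjusted p = 9.7e-04, 7.2e-08 and 1.4e-07). Psmf1, the inhibitor PI31, stood at -0.29 ± 0.11, -0.46 ± 0.12 and -0.47 ± 0.15 (adjusted p = 0.024, 0.0018 and 0.0093). Psme3 and Psmf1 were under 2-fold, and were named after their values were seen.

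Psme1 went the other way among endocrine classes. It had 78.7, 83.3, 98.6 and 109 CPM in delta-like cells, against 45.9, 43.5, 46.9 and 47.2 CPM in beta-like cells. Relative to beta-like cells it was higher in alpha-like cells by 0.70 ± 0.14, in delta-like cells by 1.01 ± 0.14 and in gamma-like cells by 0.74 ± 0.15 on the log2 scale (adjusted p = 6.9e-05, 4.0e-07 and 1.9e-04). Psmb8 was higher in delta-like than in beta-like cells by 0.99 ± 0.14 (adjusted p = 3.8e-07) and in alpha-like cells by 0.48 ± 0.13 (adjusted p = 0.0021). At the 2-fold rule these were 0 called members of 48 in alpha-like cells, beside 18.2% of all genes in either direction, Psme1 higher and Psme4 lower in delta-like cells, beside 10.7% and 6.22%, and Psme4 lower in gamma-like cells, beside 8.31%. The delta-like and gamma-like values lie close to 2-fold, so other settings moved them over and under the rule.

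Genes that work with the proteasome were read from 4 lists. Of 26 regulators and partners, 25 were tested, and 4 were higher and 1 lower in macrophage-like against endocrine cells, with a median log2 fold change of 0.14. In endothelial-like cells 5 were higher and 0 lower (median 0.26), and in lymphocyte-like cells 0 were higher and 2 lower (median -0.03). Of 15 genes of ubiquitin and its activation, 1 was higher and 1 lower in macrophage-like cells, with a median of 0.13. The counts were 0 and 0 in endothelial-like (median 0.12) and 2 and 1 in lymphocyte-like cells (median 0.17). Of 14 genes of class I presentation, 9 were higher and 0 lower in macrophage-like, 10 and 0 in endothelial-like and 8 and 0 in lymphocyte-like cells, with medians of 1.69, 2.10 and 2.15. Of 32 interferon response genes tested, 30 were higher in macrophage-like, 31 in endothelial-like and 25 in lymphocyte-like cells, with medians of 4.53, 4.54 and 3.02, and 1 was lower in lymphocyte-like cells. The shares of all genes called higher were those given above.

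Between 6 months and 1 month the immunoproteasome share was higher at the older age in both genotypes in all 6 endocrine, endothelial-like and macrophage-like classes, as the values above show. Psmb8 against Psmb5 and Psmb9 against Psmb6 were also higher at 6 months in each of these classes. Psmb10 against Psmb7 was lower in delta-like cells, 27.5% against 29.1% in CCR2-DTR and 27.7% against 30.2% in WT mice. In endothelial-like cells that pair stood at 65.0% against 64.3% and 67.0% against 65.0%. In WT mice the immunoproteasome share was lower at the older age in lymphocyte-like cells, 58.5% (44.1 to 71.9) against 66.7% (50.5 to 80.4). In WT mesenchymal-like cells it was 14.5% (10.2 to 19.8) against 20.7% (17.6 to 24.1), and both pairs of intervals overlapped. CCR2-DTR mice had 67.0% against 62.5% and 34.0% against 19.8% in these classes. By cluster, WT mesenchymal-like cells numbered 7 (led by Dcn) and 53 (led by Rgs5) at 6 months, against 76 and 198 at 1 month. Those clusters alone had WT shares of 34.1% against 31.8% and 10.2% against 11.5%. Counting intervals did not overlap in beta-like cells of CCR2-DTR mice, 12.1% (11.4 to 12.9) at 6 months against 7.33% (6.92 to 7.75) at 1 month, or of WT mice, 13.0% (12.1 to 14.0) against 8.15% (7.75 to 8.57). They overlapped in delta-like cells of WT mice, 18.8% (17.1 to 20.7) against 17.1% (15.5 to 18.8). With 1 library an age, these intervals cover counting error only, and age cannot be told apart from the library. Cells at 6 months were also deeper, with medians of 27454 and 28526 UMIs in beta-like cells at 6 months, against 13944 and 17203 at 1 month (CCR2-DTR, WT each time). Cells of at least 2000 UMIs were also thinned to 2000 and shallower cells left out, which gives each kept cell the same weight. Endocrine shares were then 13.7% against 8.86% in CCR2-DTR mice and 14.4% against 10.6% in WT mice. In macrophage-like cells the thinned shares were 67.2% against 59.5% in CCR2-DTR mice and 60.8% against 59.7% in WT mice, a smaller difference than unthinned in both genotypes. Acinar markers in macrophage-like cells summed to 533 and 91.5 CPM at 6 months, against 381 and 9034 CPM at 1 month (CCR2-DTR, WT), and their part in the result was not tested. Summed macrophage markers in beta-like cells were 50.3 and 32.6 CPM at 6 months, against 51.8 and 32.9 CPM at 1 month (CCR2-DTR, WT each time), and summed endothelial markers were 10.3 and 11.04 CPM, against 18.7 and 12.4 CPM. Summed B cell markers in WT mice were lower at 6 months in alpha-like cells, 3.22 against 4.10 CPM, and in delta-like cells, 7.08 against 11.4 CPM. They were higher at 6 months in every other endocrine class and genotype. Acinar sums were higher at 6 months in each endocrine class of both genotypes. In beta-like cells 9 B cell markers summed to 62.0 and 35.7 CPM at 6 months, against 34.5 and 18.9 CPM at 1 month, and 9 acinar markers to 156 and 15.7 CPM, against 116 and 4.27 CPM. Their part in the result was not tested.

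In beta-like cells Psmb8 and Psmb5, from either side of the ratio, were read apart. Psmb8 had 357 UMIs, or 10.3 CPM, at 6 months against 395 UMIs, or 8.83 CPM, at 1 month in CCR2-DTR mice, and 258 UMIs, or 12.5 CPM, against 440 UMIs, or 6.62 CPM, in WT mice. Its log2 ratio less that of the median gene was 0.38 in CCR2-DTR and 0.86 in WT mice. Psmb5 had 74.9 CPM at 6 months against 127 CPM at 1 month in CCR2-DTR mice, a relative log2 ratio of -0.60, and 79.1 against 94.6 CPM in WT mice, a relative log2 ratio of -0.31. These CPM values are not TMM scaled. Psmb8 lay under the 50 CPM floor used below in each of these libraries. In CCR2-DTR mice Psmb9 had 278 UMIs at 6 months against 309 at 1 month, and Psmb10 321 against 417. These beta-like cells held 34622728 UMIs in all at 6 months against 44721624 at 1 month. In WT mice Psmb9 had 184 against 461 UMIs and Psmb10 216 against 525, of 20651128 against 66494723. The part of each gene in the share was not tested. The ratios here and below are relative to the median gene since the median gene itself stood at -0.16 with age in CCR2-DTR beta-like cells, at -0.22 in CCR2-DTR gamma-like cells and at 0.20 between genotypes in beta-like cells at 1 month.

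In endothelial-like cells of CCR2-DTR mice Psmb9 had 173 CPM at 6 months against 86.9 CPM at 1 month, a relative log2 ratio of 1.00, and Psmb8 had 261 against 174 CPM, a relative log2 ratio of 0.59. In WT mice the same genes had 170 against 110 CPM and 255 against 201 CPM, relative log2 ratios of 0.58 and 0.30. The first pair lay past 1.5-fold and the second did not: 2 of 36 members past the floor in CCR2-DTR mice, beside 9.68% of all genes, and 0 of 36 in WT mice, beside 6.53%. Mesenchymal markers in endothelial-like cells summed to 2522 and 2747 CPM at 6 months, against 6389 and 5525 CPM at 1 month (CCR2-DTR, WT), and their part in the result was not tested. The sums are over 10 markers, Sparc among them, and are not given by gene. Dcn was at 0 in both WT libraries and Pdgfra in both CCR2-DTR libraries. In macrophage-like cells of CCR2-DTR mice Psmb9 had 219 against 92.5 CPM (log2 ratio 1.24, 95% interval 0.90 to 1.59), Psmb8 397 against 220 CPM (relative log2 ratio 0.86) and Psme1 385 against 233 CPM (0.73), while Psmb5 had 113 against 175 CPM (-0.63). These were 4 of 35 members past 1.5-fold, beside 23.8% of all genes. In WT mice only Psmb8 passed, 393 against 231 CPM (0.75), 1 of 34 beside 22.2%. The floor was 50 CPM in either library and 30 UMIs over both, so a gene could pass only through the library where it was higher.

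The members past the floor, which include Psme2, mostly lay below the median gene at 6 months against 1 month in endocrine cells of CCR2-DTR mice. In beta-like cells 24 of the 26 members past the floor lay below the median gene, with a median of -0.36 (lowest -0.60 for Psmb5, highest 0.09 for Psmd1), in alpha-like cells 28 of 29, with a median of -0.24, in delta-like cells 27 of 30, with -0.20, and in gamma-like cells 24 of 29, with -0.22. In WT mice the medians were -0.12, 0.04, -0.11 and -0.09. A member could pass the floor through the 1-month library alone, where it was higher, so part of these counts follows from the floor. In CCR2-DTR beta-like cells Psma4, Psma5 and Psmb7 did so, with 48.0, 42.5 and 35.9 CPM at 6 months. In beta-like cells of CCR2-DTR mice the alpha ring had a median of -0.36 over 7 genes and the constitutive catalytic genes -0.46 over 3. The 9 non-ATPase genes of the cap past the floor had a median of -0.10. The ATPases of the cap and the non-catalytic beta ring genes are not given here. Past 1.5-fold was 1 of 26 members, Psmb5, beside 5.92% of all genes, and 0 in alpha-like cells, beside 4.17%. In WT mice 0 members passed in beta-like or alpha-like cells, beside 3.25% and 2.06%.

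**Figure D4:**
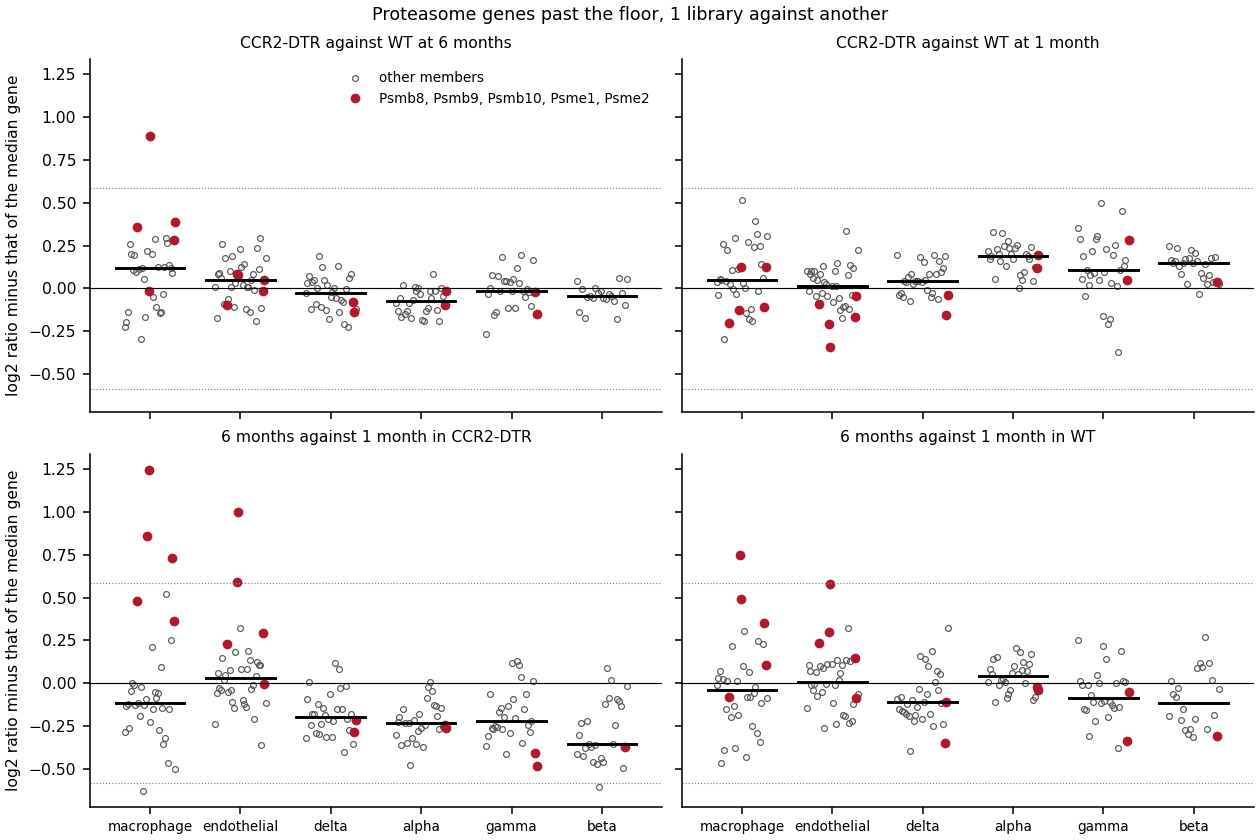
Log2 ratio of each member past the floor, less that of the median gene, for 1 library against another, by class; bars mark the median of the members and dotted lines 1.5-fold. With age in CCR2-DTR mice the endocrine bars lie at -0.20 to -0.36 while Psmb9 and Psmb8 stand at the top of the macrophage-like and endothelial-like columns.

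Between genotypes the members differed by small amounts. In alpha-like cells, and in beta-like cells as named, the median at 6 months had the opposite sign to that at 1 month. At 6 months 23 of 28 members in alpha-like cells lay below the median gene in CCR2-DTR against WT mice, with a median of -0.08, and 17 of 20 in beta-like cells, with -0.04. In beta-like cells Psmd1, Psma4 and Psmd12 passed the floor only through WT mice, at 52.0, 55.2 and 53.7 CPM. In CCR2-DTR mice they had 49.5, 48.0 and 46.5 CPM. At either age a member could pass through the library where it was higher, so these counts depend partly on the floor. With the largest unnamed cluster, low in UMIs, counted as beta-like, the beta-like median was 0.013, so its sign at 6 months depends on that choice. At 6 months that cluster's immunoproteasome share was 20.1% (13.7 to 27.9) in CCR2-DTR and 22.4% (16.8 to 28.9) in WT mice. Class shares were not recomputed with it included. At 1 month all 29 members past the floor in alpha-like cells lay above the median gene, with a median of 0.19, and 25 of 26 in beta-like cells, with 0.15. In delta-like cells the medians were -0.03 at 6 months and 0.04 at 1 month, and in gamma-like cells -0.01 and 0.11. The difference between the ages was not tested. Acinar markers were higher in CCR2-DTR mice at both ages, a summed 156 against 15.7 CPM at 6 months and 116 against 4.27 CPM at 1 month in beta-like cells, and 227 against 22.0 CPM and 191 against 9.38 CPM in alpha-like cells. Their part in the result was not tested. Psma4, of the alpha ring, had 96.8 CPM in CCR2-DTR against 77.4 CPM in WT alpha-like cells at 1 month, a relative log2 ratio of 0.33, the highest there. Psmb5 had 156 against 130 CPM, a ratio of 0.27, and in beta-like cells 127 against 94.6 CPM, a ratio of 0.22. No member passed 1.5-fold between genotypes in beta-like or alpha-like cells at either age, beside 0.799% and 1.09% of all genes at 6 months and 1.66% and 1.55% at 1 month. The 1-month genotype comparison and the age comparison in CCR2-DTR mice share the CCR2-DTR 1-month library, which had the highest Psmb5, Psmb6 and Psmb7 levels of the 4 libraries in beta-like, alpha-like, delta-like and gamma-like cells.

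In endothelial-like cells no member passed 1.5-fold between genotypes, beside 3.39% of all genes at 6 months and 2.44% at 1 month. In macrophage-like cells, Psmb9 passed at 6 months with 219 CPM in CCR2-DTR against 116 CPM in WT mice (relative log2 ratio 0.89, 281 and 86 UMIs), 1 of 33 members beside 9.95% of all genes. Psmb8 had 397 against 393 CPM (log2 ratio 0.01, 95% interval -0.20 to 0.23). At 1 month 0 of 35 members passed, beside 8.15%. Psmb9 then had 92.5 CPM in CCR2-DTR and 81.4 CPM in WT mice, a log2 ratio of 0.18 (95% interval -0.26 to 0.63).

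The mesenchymal-like class had an immunoproteasome share of 34.0% in CCR2-DTR against 14.5% in WT mice at 6 months, and 19.8% against 20.7% at 1 month. It was made of a cluster led by Dcn and Col1a1 and a cluster led by Rgs5 and Acta2, genes of fibroblasts and of pericytes or smooth muscle. The first held 48 and the second 67 cells in CCR2-DTR mice at 6 months, against 7 and 53 in WT mice. Taken apart, a comparison added after the data were seen, the Dcn cluster had shares of 46.2% (39.9 to 52.6) in CCR2-DTR and 34.1% (20.1 to 50.6) in WT mice at 6 months, and 31.7% against 31.8% at 1 month. The Rgs5 cluster had 16.2% (11.03 to 22.5) against 10.2% (6.26 to 15.5) at 6 months and 10.99% against 11.5% at 1 month. Within each cluster the counting intervals of the genotypes overlapped. Summed macrophage markers in the whole class were 154 CPM in CCR2-DTR against 17.4 CPM in WT mice at 6 months, with 10 and 3 of 10 detected, and summed endothelial markers were 2392 against 1160 CPM. Their part in the result was not tested.

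A small cluster of 19 cells was led by interferon-induced genes such as Cxcl10 and Ifit1 and combined hormone RNA with an immunoproteasome pattern. It was left unnamed because it had under 3 markers of beta cells, the class it scored highest for. It held 12 cells of CCR2-DTR and 5 of WT mice at 6 months, and 1 cell of each genotype at 1 month. Hormone transcripts made up 43.2% of its UMIs in CCR2-DTR and 38.7% in WT mice at 6 months. Glucagon RNA made up 9.40% and 26.3% of its UMIs there and insulin RNA 30.1% and 10.3% (CCR2-DTR, WT), so the hormone mix differed between the libraries. Its immunoproteasome share was 56.2% (47.7 to 64.4) and 45.3% (32.8 to 58.3) at 6 months, against 12.1% and 13.0% in beta-like and 13.4% and 13.5% in alpha-like cells of the same libraries. The folds below are against beta-like cells, in which Psmb8 and Psme1 were lower than in alpha-like cells. Psmb8 had 106 against 10.3 CPM in the CCR2-DTR library, 10.3-fold (6.80 to 15.05), and 137 against 12.5 CPM in the WT library, 10.9-fold (6.16 to 18.1). Psmb9 was higher by 12.8-fold and 7.67-fold, Psmb10 by 9.87-fold and 4.08-fold, Psme1 by 3.32-fold and 5.49-fold, and Psme2 by 3.82-fold and 2.78-fold in the CCR2-DTR and WT libraries. Psmb5, at 0.98-fold and 1.19-fold, did not differ beyond counting error, while Psmb6 was at 1.27-fold (0.863 to 1.81) and 1.71-fold (1.03 to 2.68). Other members also stood above beta-like cells beyond counting error: in the CCR2-DTR library Psma1, Psma2, Psma3, Psma4 and Psma7 of the alpha ring by 1.59-fold to 1.79-fold, Psmd7 by 1.55-fold and Psmd9 by 2.50-fold, and in the WT library Psma5 by 2.56-fold and Psmg4 by 3.599-fold. Psmd9 had 0 UMIs in the WT library. No member with UMIs in the cluster stood below beta-like cells beyond counting error. The share of all genes above beta-like cells is not given here. These CPM include hormone RNA, 43.1% of the cluster's UMIs over the 4 libraries, against 46.0% to 55.0% in the clusters named beta-like. With hormone and mitochondrial RNA left out, 31 constitutive subunits of the core and cap summed to 4442 CPM. The clusters named beta-like had 4458 to 5115 CPM. Of 10 macrophage markers 1 was detected in the cluster in each library, a C1q gene with 10 and 9 UMIs. Psme2b had 0 UMIs in the cluster in both libraries. With 17 cells at 6 months, no test between genotypes was made.

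**Figure D5:**
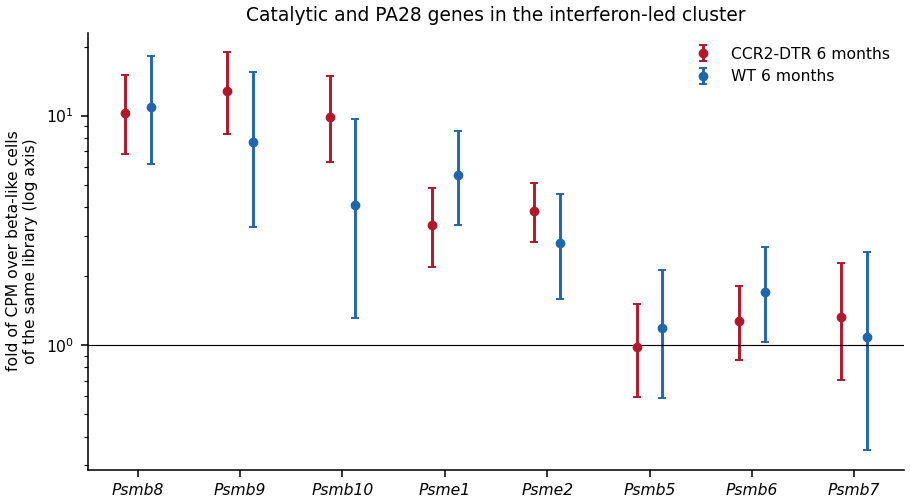
Fold of CPM in the unnamed interferon-led cluster over beta-like cells of the same library (log axis), for catalytic and PA28 genes at 6 months, with exact 95% intervals of 2 Poisson counts. The immunoproteasome and PA28 genes lie between 2.78-fold and 12.8-fold, and Psmb5 and Psmb7 intervals include 1.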

How the data were processed

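The deposited matrices held unnormalized UMI counts for each gene in each barcode, made by the authors with Cell Ranger 5.0.1 on mm10, per the file headers and the submitters' processing notes; barcode and gene lists came with them. The annotation release, strand setting and use of introns were not stated there. Cells needed 1000 UMIs, 500 genes and no more than 15% mitochondrial UMIs, and those with a Scrublet score over 0.25 were removed. Libraries were clustered together in scanpy 1.11.5 (1966 variable genes, 30 components, 15 neighbours, Leiden resolution 1), giving 23 clusters, of which 18 were named from marker lists. Names were rebuilt here and may differ from the authors'. UMIs were summed per class and library. Class contrasts used edgeR 4.0.16 (TMM, quasi-likelihood, library block, 32 columns, 21 residual degrees of freedom, Benjamini-Hochberg adjustment) on 13953 genes. The library block pairs classes measured in the same library, that is, from the same pooled animals. The 4 libraries differ in genotype and age, so the spread in these tests is over libraries and not over repeats of one condition. Within classes, libraries were compared as ratios of CPM with exact 95% Poisson intervals, without a test. Shares have Clopper-Pearson 95% intervals. Intervals cover counting error only. Named genes were the catalytic and PA28 genes in every class, up to 5 called members furthest in each direction, and the 3 highest and 3 lowest members in each comparison within a class. The members, lists and rules were chosen with earlier results of these data known. The code was tested on simulated data. Gene positions and overlaps came from GRCm38 annotation. Alternatives covered normalization, DESeq2 1.42.0, filters, depth, doublets, resolution and left-out libraries.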

Additional observations from a re-analysis of the deposited data

Results flagged for a closer look

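The immunoproteasome share was 51.4% over the 19 cells of the unnamed cluster led by interferon-induced genes, which enters none of the class comparisons; beta-like cells of the 4 libraries had 7.33% to 13.0%. In beta-like cells the members' median log2 ratio of CCR2-DTR to WT, relative to the median gene, was -0.044 at 6 months and 0.15 at 1 month. In alpha-like cells it was -0.076 at 6 months and 0.19 at 1 month. The signs were opposite at the 2 ages, the floor could be passed through either library, and the difference was not tested. With an unnamed low-UMI cluster counted as beta-like, the beta-like median at 6 months was 0.013, of the same sign as at 1 month.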

How the results depend on the processing

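Of the values recomputed for shares, counts of calls and medians, 614 stayed within the spread or 1.5 times the main count and 98 moved. The 3 immunoproteasome genes and Psme1 kept their calls in macrophage-like, endothelial-like and lymphocyte-like against endocrine cells under each alternative run. The 11, 13 and 28 lymphocyte-like cells of 3 libraries limit what that class can show. The cause of the values that moved was not tested. With each cell weighing the same, endocrine shares were 15.21%, 15.23%, 10.17% and 12.13% (CCR2-DTR and WT at 6 months, CCR2-DTR and WT at 1 month), 1-month endothelial-like shares 51.04% and 55.62%, 1-month macrophage-like shares 54.68% and 60.26% (CCR2-DTR, WT), and the CCR2-DTR 6-month lymphocyte-like share 71.77%. Thinned to 2000 UMIs, the WT 1-month endocrine share was 10.63%, 6-month endothelial-like shares 57.73% and 56.77%, macrophage-like shares 67.2%, 60.84%, 59.53% and 59.68%, and lymphocyte-like shares 71.68% (CCR2-DTR, 6 months), 70.83% (CCR2-DTR, 1 month) and 72.05% (mean). With doublets kept, endothelial-like shares were 57.21%, 57.94%, 47.11% and 47.83%, and the CCR2-DTR 6-month lymphocyte-like share 63.26%. With the counts split, the CCR2-DTR 1-month endocrine share was 8.396% and the WT 1-month macrophage-like share 59.38%. Leaving out 1 library, mean shares ranged over 57.45% to 63.89% in macrophage-like, 54.08% to 57.8% in endothelial-like, 62.55% to 65.39% in lymphocyte-like and 10.61% to 12.36% in endocrine cells.

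Members called higher ranged over 5 to 7 in macrophage-like and in lymphocyte-like against endocrine cells and over 0 to 2 in delta-like against beta-like cells when a library was left out; members called lower ranged over 0 to 1 in lymphocyte-like against endocrine, delta-like against beta-like and gamma-like against beta-like cells. Psme2 in lymphocyte-like against endocrine cells ranged over -0.25 (without the CCR2-DTR 6-month library) to 1.13 (without the CCR2-DTR 1-month library), around 0.93 with all 4. Members called lower numbered 1 in endothelial-like against endocrine cells with doublets kept (Psmc3ip), and, thinned to 2000 UMIs, 1 in lymphocyte-like against endocrine (Psmd1) and 1 in macrophage-like against endothelial-like cells (Psmd7); thinned, 1 was called higher in alpha-like against beta-like cells (Psme2b). In delta-like against beta-like cells 0 were called higher at resolution 2, with doublets kept, at no more than 10% mitochondrial UMIs and with the interferon-led cluster counted as beta, and 2 when thinned and with proteasome genes among the variable genes. There 0 were called lower at resolution 2, at 10% mitochondrial UMIs and with proteasome genes among the variable genes. In gamma-like against beta-like cells 0 were called lower with DESeq2, with its size factors and with proteasome genes among the variable genes. Without the library block (no replicate block) the calls of members were those of the blocked fit.

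Relative medians moved in beta-like cells between genotypes at 6 months to -0.091 when thinned and to 0.013 with the low-UMI cluster counted as beta. In delta-like cells they moved between genotypes at 1 month to 0.093 (resolution 2), 0.104 (10% mitochondrial UMIs) and 0.084 (thinned), and with age in CCR2-DTR mice to -0.25 (resolution 2) and -0.26 (thinned). Thinning gave -0.17 in gamma-like cells between genotypes at 6 months, 0.018 there with age in WT mice and -0.12 in mesenchymal-like cells with age in CCR2-DTR mice. With each cell weighing the same, macrophage-like medians were -0.043 between genotypes at 1 month and -0.014 with age in CCR2-DTR mice.

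Counts past 1.5-fold with no CPM floor were 1 in beta-like and 1 in alpha-like cells between genotypes at 6 months, 2 in beta-like cells with age in each genotype, 1 in alpha-like cells with age in CCR2-DTR mice, 1 in endothelial-like cells between genotypes at 1 month, 4 and 2 there with age (CCR2-DTR, WT), 3 and 4 in macrophage-like cells between genotypes at 6 months and 1 month, and 4 there with age in WT mice. At the smaller fold they were 14 in beta-like and 5 in alpha-like cells with age in CCR2-DTR mice, 1 in alpha-like and 2 in endothelial-like cells between genotypes at 1 month, 4 and 1 in endothelial-like cells with age, 3 and 2 in macrophage-like cells between genotypes at 6 months and 1 month, and 10 and 8 there with age. Thinning gave 2 in beta-like cells with age in CCR2-DTR mice, 1 in endothelial-like cells between genotypes at 6 months, 4 and 3 in macrophage-like cells between genotypes at 6 months and 1 month and 2 there with age in WT mice. With age in endothelial-like cells of CCR2-DTR mice 1 passed with each cell weighing the same, at resolution 2, with doublets kept and at 10% mitochondrial UMIs, and in WT mice 1 with doublets kept and with proteasome genes among the variable genes. In macrophage-like cells 1 passed between genotypes at 1 month with doublets kept and at 10% mitochondrial UMIs, 3 at 6 months with each cell weighing the same, and 2 with age in WT mice with each cell weighing the same and with doublets kept.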
